A study of Homo sapiens with 8 samples.

Results

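The subunits of the SF3B and SF3A complexes were followed in K562 cells that carried a doxycycline-inducible SF3B1 transgene. The 9 genes SF3B1, SF3B2, SF3B3, SF3B4, SF3B5, PHF5A, SF3A1, SF3A2 and SF3A3 were chosen by name as protein subunits of these complexes, out of 23597 genes with a value. The choice went by name and not by a measured value, although earlier results of these data were known when it was made. K562 is a human erythroleukaemia line, and all 8 RNA sequencing libraries came from it. The groups were K700E_induced and K700E_uninduced (transgene SF3B1-K700E, with and without doxycycline) and WT_induced and WT_uninduced (transgene SF3B1-WT, with and without doxycycline), with 2 libraries each. Doxycycline was used at 1 ug/ml over 48 h, and ribosomal RNA was depleted before library preparation. Every group carries a transgene, so there was no line without one, and no change to the cell's own SF3B1 gene is named in the labels. The sources used here name neither the promoter of the transgene nor whether each line is 1 clone. Whether the 2 libraries of a group came from separate cultures is also unstated, and the p-values below then cover only library-to-library spread, which can be technical.

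The U2 small nuclear ribonucleoprotein pairs with the branch point of an intron and selects the 3′ splice site. SF3B clamps the branch point helix within it, and SF3A bridges SF3B to the core of the particle. SF3B1 is the scaffold of SF3B. Its K700E substitution, found in myelodysplastic syndromes with ring sideroblasts, is known for use of cryptic 3′ splice sites. Such changes act on splicing of many pre-mRNAs, and the subunit mRNAs are themselves spliced, except that of SF3B5, which has a single exon.

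The codon that the 2 transgenes differ in is shown in its reference form, because every SF3B1 value here is a sum over alleles. Codon 700 lies in exon 15 of 25 of SF3B1, at chr2:198266832-198266834 of hg19 on the minus strand. The stretch around it, read from the RefSeq transcript of that gene as held in GENCODE v29 (GRCh38), has the codon in capitals.
SF3B1 codon 700: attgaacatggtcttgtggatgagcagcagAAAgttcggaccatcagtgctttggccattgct

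The deposited files give FPKM, the fragment count scaled by transcript length and library size, for each transcript model. A gene's value was the sum over its reference transcripts and over the spliced transcripts that Cufflinks, the transcript assembler, had built in that library and that share its introns. Read counts are not used here. Coverage per unit of FPKM in the same files, the only sign of depth, was lowest in WT_induced replicate 2 (3.29) and highest in WT_induced replicate 1 (4.77). For the 9 genes the half-width of the authors' interval on a transcript was 1.98% to 10.7% of its value (median 4.92%, 72 gene and library pairs). It covers estimation within a library only. Libraries of 1 group were hardly more alike (mean r 0.842) than libraries of different groups (0.839). The cell line's label was checked with marker genes: 8 of 8 erythroid markers had a mean of at least 1 FPKM, with a summed level of 3606 to 8450 FPKM across libraries. Of lymphoid markers 2 of 5 reached that level (sum 8.40 to 63.4 FPKM, MS4A1 at 0 in all), of myeloid markers 1 of 5 (sum 3.26 to 39.0 FPKM, with CD14, MPO and ELANE at 0 in all), and of stromal and epithelial markers 2 of 6 (sum 8.88 to 41.5 FPKM, COL3A1 at 0 in all).

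SF3B1 mRNA, in which endogenous reads and any transgene reads that match the reference are added together, was among the steadiest values measured. Replicates 1 and 2 gave 29.0 and 39.5 FPKM in K700E_induced, 34.6 and 30.4 in K700E_uninduced, 36.6 and 27.3 in WT_induced, and 37.7 and 31.7 in WT_uninduced. Libraries with doxycycline therefore held both the highest and the lowest value, and every pair of groups overlapped. The highest library was 1.45 times the lowest. The SD of its log2 value over the 8 libraries was 0.19, which lies at percentile 1.64 of the 3295 genes within 2-fold of its level, whose median was 0.54. That is a description of these libraries by the plain sum of transcripts, and the SD includes any difference between groups. With transcripts weighted by length, as described further on, SF3B1 kept its SD and was at percentile 3.28. On that scale SF3B2 (SD 0.15, percentile 4.01) and SF3B3 (SD 0.17, percentile 1.68) had lower SDs, so the steadiness was not particular to SF3B1. Doxycycline over both lines had a log2 fold change of -0.03 (SE 0.26) in SF3B1, with a 95% interval of -0.63 to 0.56, so a rise of up to 1.48-fold lies inside the interval. For each line alone the interval was wider and reached 1.88-fold on K700E induction and 1.64-fold on WT induction. A rise of the transgene within these limits could have gone unseen in the total, and these files do not separate the alleles. "Induced" therefore stands for doxycycline treatment as labelled, not for a measured rise of the transgene. The short SF3B1 transcript NM_001005526 (618 nt) was listed at 0 in all 8 libraries, with an upper bound of at most 0.227 FPKM, so the main transcript of 4292 nt held the whole value.

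**Figure D1:**
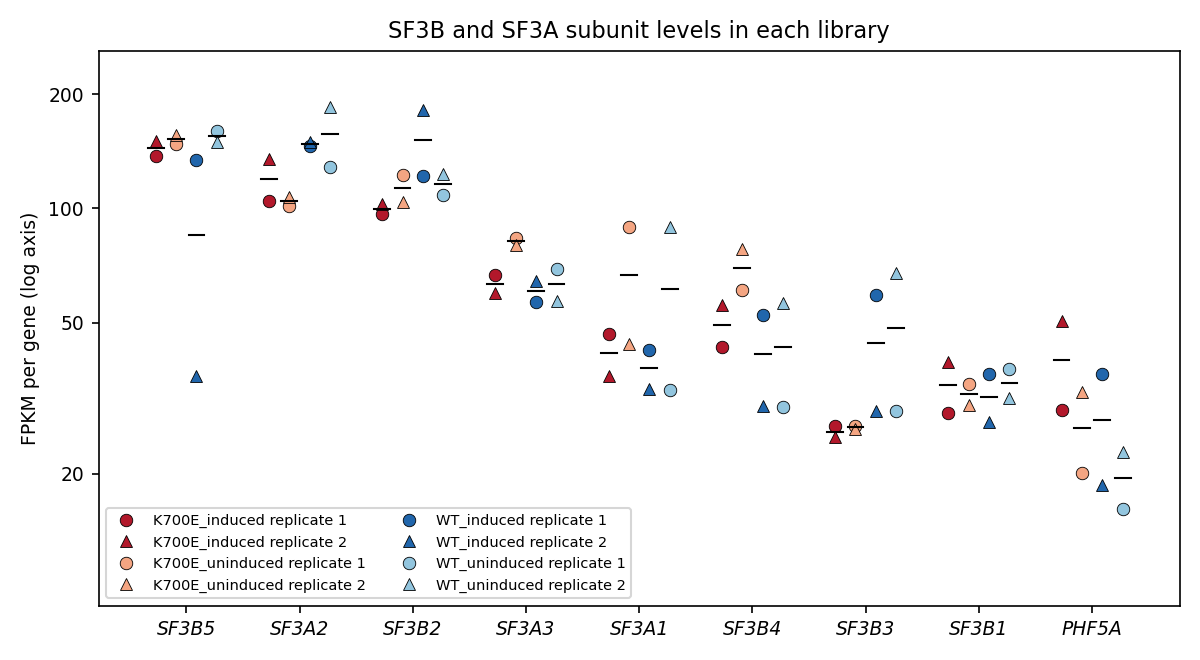
FPKM per gene (log axis) of the 9 SF3B and SF3A subunit genes in each of the 8 libraries, with colours for the groups, circles for replicate 1, triangles for replicate 2 and bars for the group means. SF3B1 stays between 27.3 and 39.5 FPKM, while SF3B5 has 1 library, WT_induced replicate 2, at 36.3 against 134 or more in the other 7.

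Levels per length spanned 4.72-fold between the highest and the lowest subunit mean, although the proteins are parts of one particle. The order by mean FPKM over the 8 libraries was SF3B5 (134), SF3A2 (132), SF3B2 (120.0), SF3A3 (67.3), SF3A1 (51.9), SF3B4 (50.9), SF3B3 (36.3), SF3B1 (33.4) and PHF5A (28.4). The step from SF3B2 to SF3A3 held in 8 of 8 libraries and measured 1.78-fold in the means. It parts the 3 highest means from the other 6, but not the genes in every library. In WT_induced replicate 2, SF3B5 was at 36.3 FPKM, below SF3A3 at 64.3. No other neighbours in that order were separated in every library: SF3B5 was above SF3A2 in 5 libraries, SF3A2 above SF3B2 in 6, SF3A3 above SF3A1 in 6, SF3A1 above SF3B4 in 5, SF3B4 above SF3B3 in 6, SF3B3 above SF3B1 in 3 and SF3B1 above PHF5A in 4. SF3B1, the scaffold, was thus near the bottom. The order and the ratios below use the plain sum, in which short assembled models raise SF3A1 and SF3B3 in 2 libraries each, as described further on. With transcripts weighted by length the means were 42.1 FPKM for SF3A1, below SF3B4 (50.9), and 28.8 for SF3B3, below SF3B1 (33.4). The median ratio of a subunit's FPKM to that of SF3B1 in the same library was 4.27 for SF3B5, 3.56 for SF3A2, 3.37 for SF3B2, 2.07 for SF3A3, 1.46 for SF3B4, 1.34 for SF3A1, 0.893 for SF3B3 and 0.861 for PHF5A. None of the 9 genes was at 0 in any library. Of the 11381 genes tested, 2603 (22.9%) were at 0 in at least 1. That set reaches down to a mean of 1 FPKM and is not matched to the subunits' levels, so no trait of the subunits is read from this.

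Differences between groups were tested with limma on log2(scaled FPKM + 0.5), with Benjamini-Hochberg adjustment over the 11381 genes with a mean of at least 1 FPKM, a group that includes all 9 subunits. Fold changes are on that scale. No subunit passed the adjusted threshold of 0.05 in any of the 5 comparisons, or reached an unadjusted p of 0.05. The shares of all genes called were as small: 0.00879% for K700E induction, 0.00879% for WT induction, 0.0264% between the induced lines, 0.0176% for the difference of the 2 inductions and 0.0176% for doxycycline over both lines, against 533, 488, 594, 480 and 522 genes at an unadjusted p under 0.05.

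**Figure D2:**
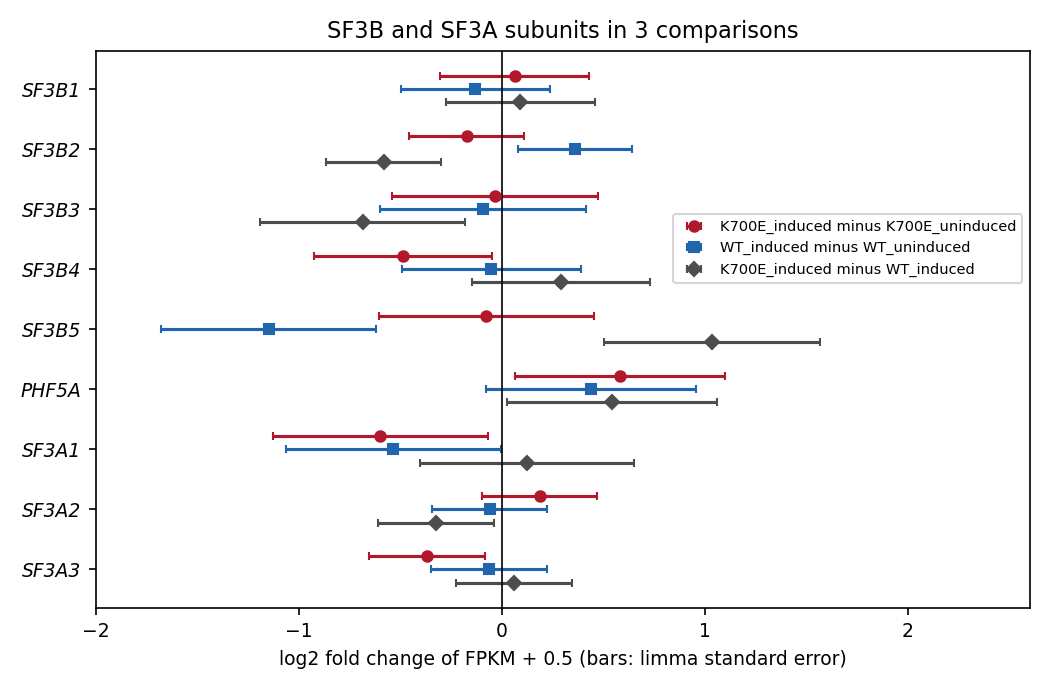
Log2 fold changes of FPKM + 0.5 for the 9 subunit genes on K700E induction (red), on WT induction (blue) and between the induced lines (grey, K700E_induced minus WT_induced), with bars for the limma standard error. The 2 largest distances from 0 belong to SF3B5, at -1.15 on WT induction and 1.04 between the induced lines.

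On induction of K700E, 3 subunits had positive and 6 negative fold changes (median -0.08, beside -0.01 over all genes), and limma's adjusted p was 1 for each. The 2 induced libraries lay below the 2 uninduced ones for SF3B2, SF3B4 and SF3A3, 3 of 9 genes, where 17.8% of all genes tested did so and 33.7% parted in either direction. SF3A3, a zinc-finger subunit of SF3A, was at 66.8 and 59.8 FPKM with doxycycline and 83.8 and 80.1 without it, a log2 fold change of -0.37 (SE 0.28). SF3B4, an RNA-binding subunit that contacts the pre-mRNA upstream of the branch point, was at 43.1 and 55.7 FPKM with doxycycline and 60.9 and 78.2 without it (-0.49, SE 0.44). SF3B2, which joins SF3B4 in the complex, was at 96.5 and 103 FPKM against 122 and 104 (-0.17, SE 0.28), with 103 and 104 FPKM in the libraries nearest to each other. PHF5A, the small zinc-finger subunit that forms the branch point pocket with SF3B1, had the highest fold change (0.58, SE 0.52), from 29.5 and 50.5 FPKM with doxycycline and 20.1 and 32.8 without it, and its groups overlapped. SF3A1 had the lowest (-0.60, SE 0.53), and that value rests on transcript models described further on. For SF3A3 the 95% interval ran from -1.03 to 0.29 and for SF3B1 from -0.78 to 0.91. Both intervals hold falls and rises, so no direction could be told with 2 libraries in a group. They are for 1 gene at a time, and the threshold adjusted over all genes tested asks for a larger change.

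On induction of wild-type SF3B1, 2 subunits had positive and 7 negative fold changes (median -0.06, beside 0.01 over all genes). The groups did not overlap for SF3B5 alone, which was lower with doxycycline, as were 13.9% of all genes, and 29% parted in either direction. SF3B5 is a small subunit that sits with SF3B3 in the scaffold. The WT_induced libraries were at 134 and 36.3 FPKM and the WT_uninduced ones at 160.3 and 149. This gave -1.15 on the log2 scale (SE 0.53, limma adjusted p 0.997). The 2 induced libraries disagree, and 1 of them sets the value: without WT_induced replicate 2 the fold change was -0.20 (limma adjusted p 1), and without replicate 1 it was -2.09 (limma adjusted p 0.134). In the K700E line SF3B5 was at 138 and 151 FPKM with doxycycline and 148 and 156 without it.

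The low SF3B5 value lies outside the deposited interval of the same group's other library. The authors' interval was 32.7 to 39.8 FPKM in WT_induced replicate 2 and 128 to 139.5 in replicate 1. SF3B5 has a single exon of 737 nt at chr6:144416018-144416754 of hg19 (minus strand), and no assembled spliced model or unspliced fragment was assigned there in any library. In the low library its value stood -2.03 log2 units from the median of the other 7. A distance of -1.5 or below in that library was shared by 4.09% of 3468 genes at 20 FPKM or more in the median of the other libraries, by 10.3% of the 475 shorter than 1000 nt, and by 7 of 57 (12.3%) single-exon genes of 300 to 1000 nt. In the other 7 libraries that last share ranged from 1.75% to 14.0%. That library also had the lowest coverage per FPKM, 3.29. The part that gene length or depth has in the SF3B5 value was not tested.

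Between the induced lines, K700E_induced minus WT_induced, 6 subunits had positive and 3 negative fold changes (median 0.09, beside 0 over all genes), with limma adjusted p between 0.952 and 1. SF3B5 was higher in both K700E_induced libraries than in both WT_induced ones (1.04, SE 0.53), as were 16.4% of all genes, and SF3B2, SF3B3 and SF3A2 were lower (-0.58, SE 0.28; -0.69, SE 0.51; -0.32, SE 0.28), as were 16.4%. This comparison shares its libraries with both inductions. The SF3B5 value rests on WT_induced replicate 2: it was 0.09 without that library and 1.98 without WT_induced replicate 1. SF3B2 was at 96.5 and 103 FPKM in K700E_induced and at 122 and 182 in WT_induced. Its fold change was -0.31 without WT_induced replicate 2, -0.35 with transcripts weighted by length (an alternative described further on) and -0.24 with reference transcripts alone. SF3A2, a zinc-finger subunit of SF3A that contacts the branch helix, was at 104 and 135 FPKM against 146 and 149.9. SF3B3, the scaffold of beta-propellers next to SF3B1, was at 26.7 and 25.0 FPKM against 59.3 and 29.3, so most of its distance came from WT_induced replicate 1. The SF3B3 fold change was -0.17 without that library, -1.20 without WT_induced replicate 2, -0.23 weighted by length and 0.24 with reference transcripts alone. That of SF3A2 was -0.14 without K700E_induced replicate 1, -0.51 without K700E_induced replicate 2 and -0.20 with reference transcripts alone.

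The 2 inductions were then set against each other. The difference of the inductions, K700E minus WT, was positive for 5 subunits and negative for 4, from -0.53 in SF3B2 to 1.07 in SF3B5 (SE 0.40 and 0.75), with a limma adjusted p of 0.999 for each. The SF3B5 value was 0.13 without WT_induced replicate 2 and 2.02 without WT_induced replicate 1. The SF3B2 value was -0.26 and -0.81 without the same libraries, -0.30 weighted by length and -0.10 with reference transcripts alone. With the lines averaged, doxycycline had fold changes from -0.61 in SF3B5 (SE 0.37) to 0.51 in PHF5A (SE 0.36), 3 positive and 6 negative, with limma adjusted p between 0.958 and 0.996. For SF3B5 the averaged value was -0.14 without WT_induced replicate 2 and -1.08 without WT_induced replicate 1. No subunit had 4 doxycycline libraries all above or all below the 4 others, which 2.61% of all genes did (1.24% above and 1.37% below). PHF5A ranged from 18.7 to 50.5 FPKM with doxycycline and from 16.1 to 32.8 without it. SF3A2 ranged from 104 to 149.9 FPKM with doxycycline and from 101 to 185 without it.

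The widest spreads of SF3A1 and SF3B3 went with transcripts assembled in single libraries. SF3A1, the SF3A subunit that also contacts the U1 particle, was at 89.5 FPKM in both K700E_uninduced replicate 1 and WT_uninduced replicate 2, and between 33.3 and 46.8 FPKM in the other 6 libraries. In those 2 libraries an assembled model of 2585 and 2188 nt held 74.0 and 73.0 FPKM, 82.7% and 81.6% of the gene, and the reference transcript NM_005877 (5120 nt) held 15.4 and 16.4. Both models stopped 2534 and 2452 nt short of the reference 3′ end. A short model turns the same number of fragments into a larger FPKM, so the sum was also taken with each transcript weighted by its length, an alternative chosen after the values were seen. On that scale SF3A1 was at 52.8 and 47.7 FPKM in these 2 libraries, and its ratio of highest to lowest library went from 2.69 to 1.59. The weighted SF3A1 fold change was -0.22 on K700E induction and -0.08 on WT induction, against -0.60 and -0.53 by the plain sum. With reference transcripts alone, which leaves the assembled share out, it turned to 0.65 on K700E induction and 0.71 on WT induction.

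**Figure D3:**
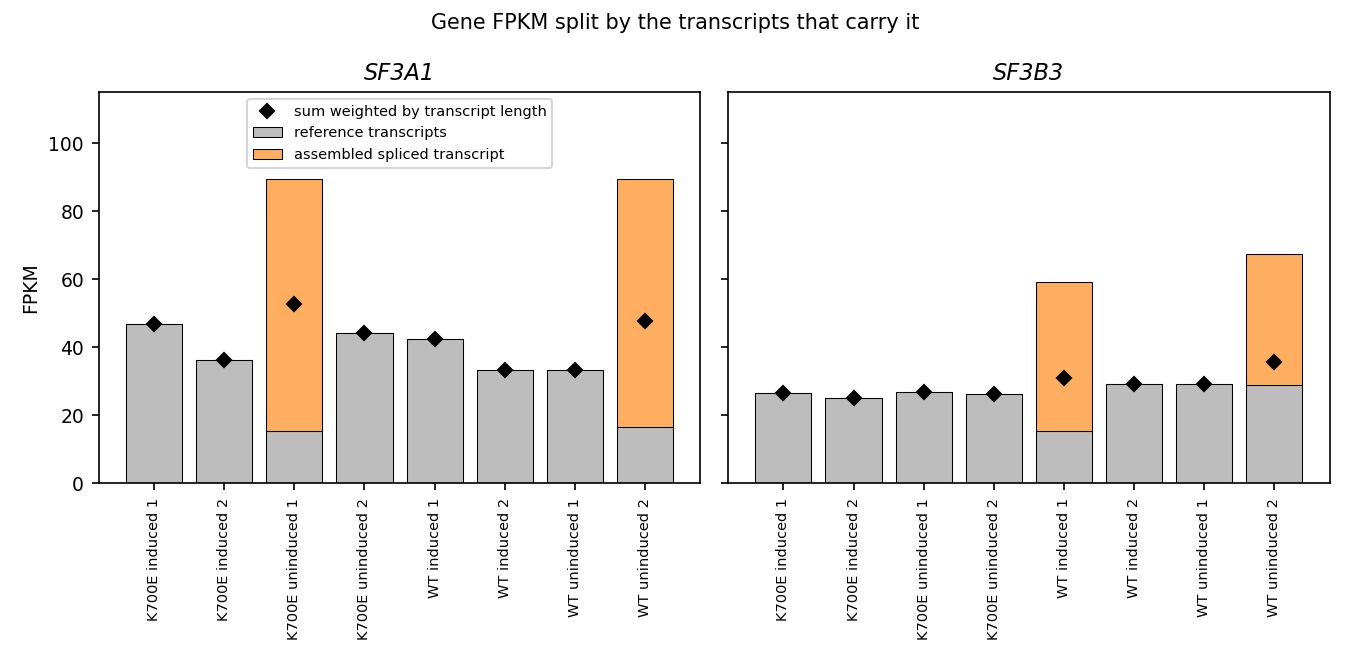
FPKM of SF3A1 (left) and SF3B3 (right) in each library, as stacked bars of reference transcripts (grey) and assembled spliced transcripts (orange), with diamonds for the sum weighted by transcript length. The 4 tall bars, 2 for each gene, are the 4 with an orange part, and their diamonds lie at 52.8 and 47.7 FPKM for SF3A1 and at 31.0 and 35.8 for SF3B3.

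SF3B3 had the same pattern. It was between 25.0 and 29.3 FPKM in 6 libraries, at 59.3 in WT_induced replicate 1 and at 67.5 in WT_uninduced replicate 2. In those 2 libraries models of 3437 and 1734 nt, beside a reference of 9720 nt, held 43.8 and 38.6 FPKM (73.9% and 57.2% of the gene). The length-weighted values were 31.0 and 35.8 FPKM, and the ratio of highest to lowest library went from 2.70 to 1.43. The SD of log2 SF3B3 over the libraries was 0.57 by the plain sum and 0.17 by the weighted one. On the weighted scale the same subunits had groups without overlap in each comparison as on the plain one. With reference transcripts alone they were not the same. K700E induction then parted SF3B4 alone, lower as in 17.1% of all genes. WT induction parted SF3A1, which was higher (13.8% of all genes), beside SF3B5, which was lower (15.0%). Between the induced lines SF3B5 and SF3A3 were higher (16.7%) and SF3B2 was lower (15.2%), while SF3B3 and SF3A2 overlapped.

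**Figure D4:**
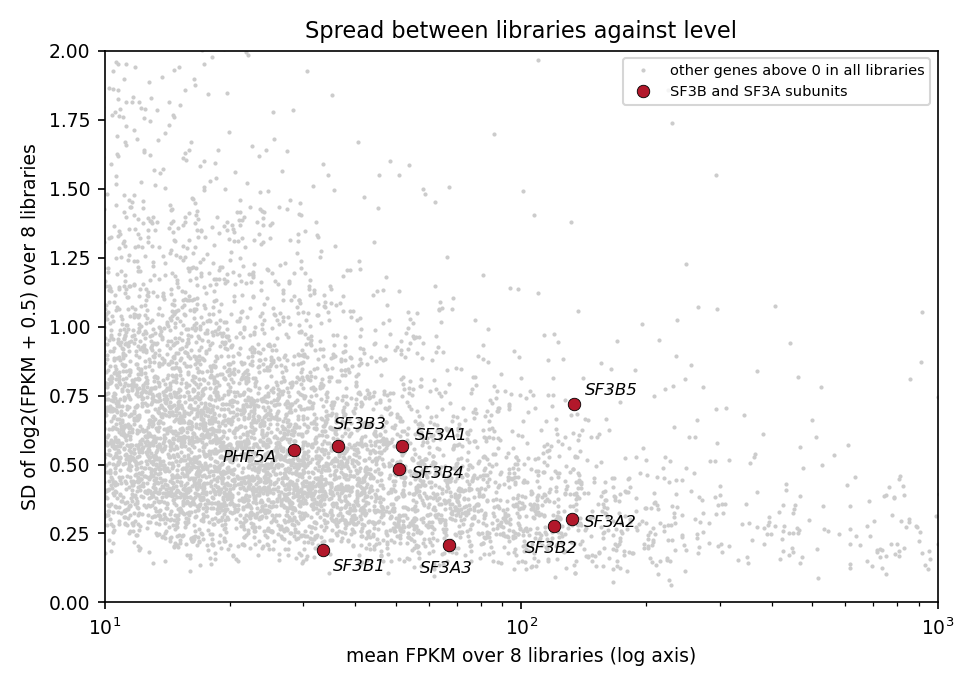
SD of log2(FPKM + 0.5) over the 8 libraries against mean FPKM (log axis), with the 9 subunit genes in red and other genes above 0 in all libraries in grey. SF3B1 (SD 0.19) and SF3A3 (0.21) lie at the lower edge of the cloud, at percentiles 1.64 and 5.27 of genes within 2-fold of their level. These are plain sums, and with transcripts weighted by length (not drawn) SF3B2 (SD 0.15) and SF3B3 (0.17) were lower than SF3B1.

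Assembled spliced forms of the subunits numbered 14, in 6 genes and 13 of 72 gene and library pairs; SF3B1, SF3B4 and SF3B5 had none. By group there was 1 in K700E_induced, 3 in K700E_uninduced, 4 in WT_induced and 6 in WT_uninduced. Assembled models of any kind numbered 27388 and 38948 in replicates 1 and 2 of K700E_induced and 39801 and 34386 in K700E_uninduced. They numbered 45570 and 35683 in WT_induced and 39794 and 24926 in WT_uninduced. The share of all genes with a spliced form was not computed, so nothing is read from the counts by group. Of the 14, 11 used reference introns only and 11 ended inside a reference intron. PHF5A in K700E_induced replicate 2 had the form of that group: a model of 609 nt that ran 315 nt into an intron, at 13.0 FPKM and 25.7% of the gene. SF3B2 had a model of 792 nt in WT_induced replicate 2 that ended 85 nt into an intron and held 72.0 FPKM (39.7%). This is the library with the highest SF3B2 value, 182 FPKM.

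Only 3 forms held an intron that the reference lacks, and none of them was in an induced library of K700E. The share over all assembled forms was not computed, and with 3 forms nothing about K700E is read from this. In SF3A3 a form in WT_uninduced replicate 1 left out exon 16 of 17 (56 nt, chr1:38425792-38425847 of hg19, minus strand) and held 16.0 FPKM, 23.0% of the gene. In SF3A1 the form of 2585 nt in K700E_uninduced replicate 1 used a donor 1 nt upstream of the reference one, with an intron at chr22:30742509-30748940. In SF3B2 a form in K700E_uninduced replicate 2 used an acceptor 3 nt downstream of the reference acceptor of exon 7 of 22, with an intron at chr11:65824427-65824739 (plus strand). It held 13.2 FPKM, 12.7% of the gene. A pair of acceptors 3 nt apart is the kind of choice that the U2 particle and its partners make, and the 2 exon junctions are shown for that reason, from the RefSeq transcript in GENCODE v29. The capitals mark the 3 bases that the downstream acceptor leaves out of the mRNA.
SF3B2 reference acceptor: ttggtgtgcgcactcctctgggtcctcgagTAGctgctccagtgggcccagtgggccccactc
SF3B2 downstream acceptor: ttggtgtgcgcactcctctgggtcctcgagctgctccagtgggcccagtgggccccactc

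The share of each transcript in its gene was tested over 24770 transcripts of 7674 genes, of which 14 transcripts in 6 subunit genes. These are not the 14 assembled forms above, since reference transcripts are among them. The SF3B2 form with the downstream acceptor and the SF3A3 form that left out an exon were not tested. None of the 14 passed in any comparison, where 0% of all transcripts did. On K700E induction the SE ran from 2.16 (assembled PHF5A form) to 3.47 log2 units (SF3A1 NM_005877). The result therefore says little about shifts of that size or smaller. The SF3A1 transcript NM_001005409 was listed at 0 in all 8 libraries, with an upper bound of at most 0.0189 FPKM. Unspliced assembled fragments inside the subunit loci, which were not added to the gene values, numbered 106: 41 in SF3B3, 19 in SF3B1, 12 in SF3A3 and 0 in SF3B5, with 8 to 23 in a library.

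The genes whose levels ran most like SF3B1 over the 8 libraries were not other subunits. Among 3608 genes at 20 FPKM or more in the mean, the highest Pearson r of log2 values with SF3B1 belonged to CLCN3 (0.96, Spearman rho 0.95), NPIP (0.95, 0.90) and RXRA (0.94, 0.90). CLCN3 encodes an endosomal chloride transporter and RXRA a retinoid receptor. The lowest r belonged to ERCC2, a DNA repair helicase (-0.94, rho -0.90), EIF2S3, a translation initiation factor subunit (-0.91, -0.83), and TAF1D (-0.90, -0.86). These are extremes of many genes over 8 points that share libraries and scaling, and are given as a description. The other subunits had an r with SF3B1 from -0.46 (SF3B2) to 0.61 (SF3B5, rank 218 of 3608), with PHF5A at 0.34 and SF3A3 at -0.18. WT_induced replicate 2 was the lowest library of both SF3B1 (27.3 FPKM) and SF3B5 (36.3 FPKM), and r without it was not computed. All these r use the plain sum, and r on the scale weighted by length was not computed.

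A list of 24 further genes of the U2 particle and of branch point recognition gave 0 limma calls in each of the 5 comparisons, where 0.00879%, 0.00879%, 0.0264%, 0.0176% and 0.0176% of all genes were called. Unadjusted p-values below 0.05 were reached by 1, 2, 1, 2 and 0 of them, beside 4.68%, 4.29%, 5.22%, 4.22% and 4.59% of all genes, in the order K700E induction, WT induction, induced lines, difference of the inductions and doxycycline over both lines. Each of these counts is 2 or fewer, so nothing is read from them. On K700E induction 10 were above and 14 below 0 (median -0.04), and on WT induction 15 and 9 (median 0.27). CHERP, a partner of the U2-associated proteins U2SURP and RBM17, had the highest K700E fold change, 1.25 (SE 0.39, limma adjusted p 0.978). It was at 107 and 68.5 FPKM in K700E_induced and at 33.4 and 38.3 in K700E_uninduced. WT_induced was at 29.0 and 42.3 FPKM, so CHERP was also the highest of the list between the induced lines (1.27, SE 0.39, limma adjusted p 0.850). The 2 K700E_induced libraries lay above the other 6 for CHERP. That split was not tested and the share of all genes with it was not computed, so nothing is read from it.

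SNRPE, a subunit of the Sm ring, was the lowest of the list on K700E induction (-1.26, SE 0.74, limma adjusted p 1) and the highest on WT induction (2.07, SE 0.74, limma adjusted p 0.997). It was at 5.61 and 15.5 FPKM in K700E_induced, 34.2 and 15.6 in K700E_uninduced, 16.0 and 23.4 in WT_induced and 7.18 and 2.38 in WT_uninduced. It was also the lowest for the difference of the inductions (-3.33, SE 1.05, limma adjusted p 0.999). SMNDC1, a splicing factor related to SMN, was lowest on WT induction (-1.75, SE 0.62, limma adjusted p 0.997), at 26.5 and 14.6 FPKM with doxycycline and 109 and 41.2 without it. It was also lowest with the lines averaged (-1.01, limma adjusted p 0.958) and highest for the difference of the inductions (1.48). The remaining named genes were the Sm proteins SNRPG, highest with the lines averaged (1.13), and SNRPF, lowest between the induced lines (-1.13). SF3B6, the remaining SF3B subunit, which touches the branch point and is listed in the files under the older symbol SF3B14, was in this list and had a mean of 53.5 FPKM. All values for this list are plain sums. Fold changes of its genes weighted by length, with reference transcripts alone or with a library left out were not looked at.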

How the data were processed

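The authors deposited 1 transcript list per library, holding FPKM; the submitters' processing notes name CASAVA, TopHat, Cufflinks and the build hg19, with no versions or settings. Where transcripts overlap, Cufflinks estimates how their reads are divided. Genes were built from 41264 reference transcripts, 21689 assembled spliced transcripts of 300 nt or more (to the gene sharing most introns, ties left out) and 175 unspliced ones matching a single-exon reference over 90% of each. Libraries were scaled by median ratios from 7586 genes (factors 0.979 to 1.03). Levels in the text are unscaled FPKM. Genes with a mean of at least 1 FPKM were tested as log2(scaled FPKM + 0.5) in R 4.3.3 with limma 3.58.1, fitting 4 group means with a mean-variance trend, and adjusted by Benjamini-Hochberg within each of 5 comparisons, threshold 0.05. Transcript shares of 5% to 95% were tested as log2 ratios to the rest of the gene. Tables used Python 3.11.15 and pandas 2.3.3, and figures matplotlib 3.10.9. The fit was tested on simulated data.

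The 9 members and all lists were chosen with earlier results of these data known. All 9 were named, and of the 24 further genes the highest and lowest in each comparison. For SF3B1 the 3 genes with the highest and the 3 with the lowest r were named. Alternatives were other pseudocounts, no filter, other scaling, reference transcripts alone, the compared groups alone, a replicate block, each library left out and, added after the data were seen, transcripts weighted by length.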

Additional observations from a re-analysis of the deposited data

Results flagged for a closer look

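With the 2 lines joined, each subunit gene gave a group of 4 libraries with doxycycline and 1 of 4 without, 18 groups in all, and 3 of them held a library whose gap to the nearest other, divided by the range of the group, was above Dixon's critical value for 4 values. For 4 normally distributed values from 1 population, chance flags about 1 in 20 groups. These were unlogged FPKM from 2 lines, and the share flagged over all genes was not computed. No excess is therefore read from 3 of 18. SF3B3 was at 59.3 FPKM in WT_induced replicate 1, with a ratio of 0.874. SF3B3 was also at 67.5 FPKM in WT_uninduced replicate 2, with a ratio of 0.929. SF3B5 was at 36.3 FPKM in WT_induced replicate 2, with a ratio of 0.853. Both SF3B3 values came from libraries with a shorter assembled model of the gene, and the SF3B5 value did not.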

How the results depend on the processing

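No subunit passed the threshold under any setting tried. The lowest limma adjusted p was 0.134, for SF3B5 on WT induction without WT_induced replicate 1. With reference transcripts alone these fold changes took the opposite sign: SF3A1 at 0.65 on K700E induction, 0.71 on WT induction and 0.68 with doxycycline over both lines, SF3A2 at 0.17 and SF3A3 at 0.022 on WT induction, SF3B3 at 0.24 between the induced lines, PHF5A at -0.098 for the difference of the inductions and SF3B2 at -0.019 with doxycycline over both lines. Weighted by length, SF3A2 was at 0.057 on WT induction and SF3B2 at -0.025 with doxycycline over both lines. The first setting leaves out assembled transcripts by construction; otherwise the cause was not tested.

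Genes called numbered 2 (K700E induction), 9 (WT induction), 5 (induced lines) and 1 (doxycycline over both lines) with reference transcripts alone. Weighted by length, K700E induction gave 2, as it did with a pseudocount of 0.1. Without the filter on low values the 5 comparisons gave 28, 13, 14, 11 and 12, and with only the groups compared WT induction gave 0 and the induced lines 6. Leaving out 1 library at a time gave 1 to 7 genes on K700E induction, 0 to 8 on WT induction, 3 to 11 between the induced lines, 0 to 3 for the difference of the inductions and 0 to 3 with doxycycline over both lines.

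Leaving out 1 library also turned 23 subunit fold changes. On K700E induction the ranges were -0.15 to 0.28 for SF3B1 and -0.083 to 0.013 for SF3B3. On WT induction they were -0.35 to 0.087 for SF3B1, -0.68 to 0.50 for SF3B3, -0.49 to 0.39 for SF3B4, -0.047 to 0.92 for PHF5A, -1.23 to 0.16 for SF3A1, -0.31 to 0.19 for SF3A2 and -0.21 to 0.083 for SF3A3. Between the induced lines they were -0.13 to 0.31 for SF3B1, -0.12 to 0.70 for SF3B4, -0.059 to 0.31 for SF3A1 and -0.022 to 0.14 for SF3A3. For the difference of the inductions they were -0.024 to 0.41 for SF3B1, -0.53 to 0.65 for SF3B3, -0.87 to 0.0042 for SF3B4, -0.34 to 0.63 for PHF5A, -0.76 to 0.63 for SF3A1 and -0.0077 to 0.50 for SF3A2. With doxycycline over both lines they were -0.14 to 0.076 for SF3B1, -0.045 to 0.23 for SF3B2, -0.36 to 0.23 for SF3B3 and -0.064 to 0.19 for SF3A2. A group left with 1 library is assumed to vary like the others.

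Deviations of libraries with the same replicate number from their group means had r between -0.040 and 0.097 over 8778 genes. Coverage per FPKM was higher in replicate 1 than in replicate 2 in each group. It was 4.45 and 3.94 in K700E_induced, 3.85 and 3.63 in K700E_uninduced, 4.77 and 3.29 in WT_induced and 4.55 and 3.71 in WT_uninduced. Whether libraries with the same number share a batch is not given and was not tested. With a replicate block the genes called numbered 1, 1, 2, 2 and 2, against 1, 1, 3, 2 and 2 without it, and no subunit was called.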
